A study of Mus musculus with 20 samples.

Results

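Complex I, the NADH:ubiquinone oxidoreductase of the mitochondrial respiratory chain, was followed through every bead chip probe whose gene symbol begins with Ndufa, Ndufb, Ndufc, Ndufs, Ndufv or Ndufaf. The rule goes by gene name and uses no measured value. They were 68 of the 45281 probes and named 44 genes. Of these probes 53 measured 34 structural subunits, 13 measured 8 assembly factors, and 2 were kept apart because Ndufa4 is now placed in complex IV and Ndufs5-ps is a pseudogene. Ndufs5, Ndufb1 and Ndufa4l2 were not analysed here because no probe carried their symbol.

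Ventricular RNA was hybridised to Illumina bead chips, 1 array per mouse, from 6 TAC DKO, 6 TAC CTL, 4 sham DKO and 4 sham CTL hearts. DKO mice were homozygous for floxed Dnmt3a and Dnmt3b, the de novo DNA methyltransferases, and carried the MLC2aCre allele, a Cre recombinase under a myosin light chain promoter of cardiomyocytes. CTL mice had the same floxed alleles without Cre. All were males that had transverse aortic constriction (TAC), which overloads the left ventricle with pressure, or a sham operation at 10 to 12 weeks of age, and left ventricular tissue was taken 4 weeks later, at 14 to 16 weeks. The promoter is one of cardiomyocytes, whereas the RNA came from whole ventricular tissue, so fewer cardiomyocytes and less RNA per cardiomyocyte cannot be told apart.

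Complex I takes electrons from NADH, passes them along flavin and iron-sulfur clusters to ubiquinone, and uses the energy to pump protons across the inner mitochondrial membrane. The core subunits that carry the redox centres form the matrix arm, the core subunits that pump are encoded by mitochondrial DNA, and a shell of nuclear encoded accessory subunits surrounds both. Assembly factors join the modules and then leave. The heart depends heavily on this pathway, because its ATP comes mainly from oxidative phosphorylation.

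Intensities are the linear values of the table after quantile normalisation over all 20 arrays. A probe passed the test at a Benjamini-Hochberg adjusted p under 0.05 in limma and was called where the fold change was also over 1.5. The members were among the brightest probes of the chip, with 51 of 68 at or above the 90th percentile of all probes, and the median probe lay at the 99.1 percentile for structural subunits and at the 86.4 percentile for assembly factors. 7 member probes were near background, which was set at an intensity of 58.1 from 1504 probes of olfactory and vomeronasal receptors. They were the probe of Ndufs1, 1 probe each of Ndufb2, Ndufb11, Ndufaf6 and Ndufaf8, and 2 probes of Ndufaf7. The arrays did not show the deletion. The 3 Dnmt3a probes and 1 of 2 Dnmt3b probes were near background, and none of the Dnmt3a and Dnmt3b probes passed between genotypes. The authors assessed the deletion by PCR in sorted cardiomyocytes and cardiomyocyte nuclei. The sham and TAC arrays had been quantile normalised as 2 separate sets before deposit, with the median probe 0.30 higher in TAC hearts on the log2 scale, so surgery and set cannot be told apart in any comparison of TAC with sham. The number of arrays per group limits the precision. Arrays are named by their group and the replicate number of the labels.

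The genotype comparisons ask whether loss of both methyltransferases in cardiomyocytes changed complex I transcripts with or without overload. No complex I probe passed between DKO and CTL hearts in the main fit, which has no block for the replicate number, neither after TAC nor after sham surgery. Across all probes 0.0618% passed lower and 0.254% higher in DKO hearts after TAC, and 0.0199% lower and 0.0994% higher in sham hearts. At an unadjusted p under 0.05, TAC DKO hearts had 3 structural probes lower and 0 higher, with 2 assembly factor probes lower and 2 higher, against 4.56% and 4.44% of all probes. In sham DKO hearts 2 structural probes were lower and 1 assembly factor probe was higher at that level, against 2.88% and 2.68% of all probes. The median difference of the 53 structural probes was -0.06 on the log2 scale after TAC, with 34 below 0, and -0.07 in sham hearts, with 44 below 0. The corresponding medians of all probes were -0.0006 and -0.003. Structural probes ranged from -0.47 to 0.14 after TAC and from -0.26 to 0.15 in sham hearts. The 13 assembly factor probes had medians of -0.04 after TAC and 0.01 in sham hearts. No member separated TAC DKO from TAC CTL arrays, against 0.216% of all probes lower and 0.338% higher.

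The precision of these comparisons varied among members, with SEs of structural probes from 0.047 (Ndufa13) to 0.197 (Ndufb9) after TAC and from 0.058 to 0.241 in sham hearts for the same 2 probes. The 95% interval of the difference lay within a 1.5-fold change in either direction for 46 of 53 structural probes after TAC and for 50 of 53 in sham hearts, and for all 13 assembly factor probes in both. The outermost interval bounds of the structural probes were -0.79 and 0.33 after TAC and -0.72 and 0.58 in sham hearts.

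Ndufs4, an accessory subunit of the matrix arm whose loss in mice causes a fatal encephalopathy, gave the lowest p between genotypes after TAC. Its dimmest probe read 553 to 1031 in TAC DKO hearts with a median of 646, against 655 to 1220 in TAC CTL hearts with a median of 1068. The groups overlapped, and the log2 difference was -0.47 (SE 0.155, unadjusted p = 0.0062 and adjusted p = 0.33 in limma). The other 3 probes of Ndufs4 differed by -0.01, -0.14 and -0.20 between TAC DKO and TAC CTL hearts. Ndufb5, Ndufb2 and Ndufa6, a binding partner of the acyl carrier subunit, differed by -0.32, -0.40 and -0.18. Among the assembly factors Ndufaf5, which modifies an arginine of Ndufs7, differed by -0.20 in its dimmer probe, Ndufaf3 by -0.26, Ndufaf4 by 0.18 in its brighter probe and Ndufaf7, an arginine methyltransferase, by 0.14 in a probe near background. None of these 8 probes had an adjusted p under 0.33.

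In sham hearts the lowest p was that of Ndufs8, a core subunit that holds iron-sulfur clusters on the path to ubiquinone. Its probe read 4418, 4438, 4287 and 4216 in sham DKO hearts, against 4480, 4875, 4772 and 5940 in sham CTL hearts. All sham DKO arrays lay below all sham CTL arrays, with a log2 difference of -0.20 (SE 0.074, adjusted p = 0.78 in limma). Such a separation was seen for 3 of 53 structural probes in the lower and 0 in the higher direction, against 2.08% and 1.81% of all probes. The next in order were the brighter probe of Ndufaf4 with 0.25, the brighter probe of Ndufs6 with -0.18 and Ndufs7 with -0.14. They were followed by Ndufab1 with -0.16 in its dimmest probe, Ndufv3 with -0.21, Ndufc1 with -0.16 and Ndufb11 with 0.15.

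No complex I probe passed the test of the interaction, which asks whether the response to TAC differed between genotypes. Of all probes 0.00221% passed lower and 0% higher, and a pass or call in 1 genotype alone below is therefore no sign of a difference between genotypes. At an unadjusted p under 0.05 the members held 1 probe, the brighter one of Ndufs6, with an interaction of 0.23 (SE 0.108, adjusted p = 0.94 in limma), against 2.2% of all probes lower and 2.51% higher. After it came the dimmer probe of Ndufb6 with -0.47, and then Ndufa2 with 0.13, Ndufb11 with -0.18 and Ndufc1 with 0.17. Ndufaf7 with 0.13, Ndufs8 with 0.14 and Ndufs4 with -0.34 closed the 8 probes of lowest p.

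The surgery comparisons gave many differences. In TAC DKO hearts 22 structural probes of 17 genes fell and 6 rose relative to sham DKO hearts, against 12.7% of all probes lower and 15.4% higher. In TAC CTL hearts 21 structural probes of 17 genes fell and 2 rose relative to sham CTL hearts, against 10.2% lower and 11.7% higher. The split depended on the scaling, since with each array centred on its median 44 fell and 0 rose in DKO hearts and 45 fell and 0 rose in CTL hearts. Among the 763 probes at least as bright as the median member, 22.9% passed lower and 37.5% higher in DKO hearts, and 20.2% lower and 34.5% higher in CTL hearts. The structural counts above include dimmer probes, and structural probes of that brightness were not counted apart, so these shares are not like for like. 18 structural probes fell in both genotypes and 2 rose in both, and the share of all probes that did so was not computed. Without sham CTL array 4, 17 fell and 1 rose in CTL hearts, and without sham CTL array 2, 4 rose.

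Probes called lower were fewer and moved further. In DKO hearts 13 structural probes were called lower, against 4.27% of all probes, and in CTL hearts 11, against 3.4%. None was called higher, against 2.46% of all probes in DKO hearts and 1.76% in CTL hearts. Without overlap between the groups, 18 structural probes were lower and 5 higher in TAC than in sham DKO hearts, against 9.38% and 11.1% of all probes. Of the structural probes in CTL hearts, 18 were lower and 1 higher without overlap, against 7.78% and 8.37%. The median structural probe differed by -0.15 in DKO hearts and by -0.18 in CTL hearts, whereas the median of all probes differed by 0.02 and 0.01. Single structural probes ranged from -2.43 to 0.50 in DKO hearts and from -2.32 to 0.33 in CTL hearts. Those called in both genotypes lay at -0.94 or below in each.

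Of the core subunits, Ndufs3 had the largest difference. This subunit belongs to the module that leads electrons to ubiquinone. It read 2582 to 3883 in TAC DKO hearts with a median of 2878, against 4490, 5249, 4583 and 4615 in sham DKO hearts. All TAC DKO arrays were below all sham DKO arrays, with a log2 difference of -0.63 (SE 0.131, adjusted p = 0.00072 in limma). In TAC CTL hearts it read 2613 to 4165 with a median of 3604, against 4838, 5212, 5818 and 3744 in sham CTL hearts, with a difference of -0.49 (adjusted p = 0.0087) and an overlap at sham CTL array 4.

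The other core subunits moved by less than 1.15-fold. Ndufv2, an iron-sulfur subunit of the NADH-oxidising module, fell by 0.19 in DKO hearts and by 0.18 in CTL hearts on the log2 scale. Ndufv1, which binds NADH and the flavin, fell by 0.19 in CTL hearts and differed by -0.11 in DKO hearts, where it did not pass. Ndufs8 fell by 0.19 in CTL hearts and differed by -0.05 in DKO hearts, and Ndufs7 did not pass in either, with -0.15 in DKO and -0.18 in CTL hearts. In CTL hearts 3 of these genes passed close to the threshold, with adjusted p = 0.041 for Ndufv1, 0.045 for Ndufv2 and 0.046 for Ndufs8 in limma. With single arrays left out they no longer passed for 7, 13 and 15 of 20 arrays. The adjusted p was then up to 0.11, 0.10 and 0.25, the last without sham CTL array 4, where the Ndufs8 difference was -0.11. Ndufv2 no longer passed in DKO hearts without sham DKO array 2 or 3 or TAC DKO array 4, with adjusted p = 0.091, 0.087 and 0.067. The Ndufs1 probe read 42.8 to 56.0 over all 20 arrays and was near background.

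Among the 16 probes of 9 matrix arm accessory subunits, 5 fell and 2 rose in DKO hearts, against 12.7% and 15.4% of all probes, and 5 fell and 1 rose in CTL hearts, against 10.2% and 11.7%. The 4 called in each genotype, against 4.27% of all probes in DKO and 3.4% in CTL hearts, were 1 probe of Ndufa5 and 3 of Ndufs4. The dimmer probe of Ndufa5 read 242 to 404 in TAC DKO hearts with a median of 268, against 1494, 1567, 1714 and 1637 in sham DKO hearts. In TAC CTL hearts it read 213 to 513 with a median of 379, against 1647, 1627, 1946 and 2045 in sham CTL hearts. No array of either TAC group reached the lowest sham array. The log2 differences were -2.43 (SE 0.182, adjusted p = 1.2e-09) in DKO hearts and -2.32 (SE 0.182, adjusted p = 4.0e-09) in CTL hearts in limma.

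The brighter probe of Ndufa5 showed nothing of this kind. It read 6545 to 8553 in TAC DKO hearts with a median of 7456, against 6329, 6915, 6695 and 7309 in sham DKO hearts, a difference of 0.15 that did not pass (adjusted p = 0.17 in limma). In TAC CTL hearts it read 6612 to 8777 with a median of 7645, against 7471, 7396, 7257 and 6800 in sham CTL hearts, a difference of 0.06 (adjusted p = 0.65).

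Ndufs4 repeated the contrast with 4 probes. The probe with the largest difference read 553 to 1031 in TAC DKO hearts with a median of 646, against 2548, 2440, 2678 and 2815 in sham DKO hearts. In TAC CTL hearts it read 655 to 1220 with a median of 1068, against 2739, 2579, 2486 and 3844 in sham CTL hearts. The differences of -1.88 and -1.54 on the log2 scale were matched in direction by 2 further probes, with -1.28 and -1.22 in DKO hearts and -1.16 and -1.17 in CTL hearts. In all of these every TAC array lay below every sham array of its genotype. The brightest probe, in contrast, read 4037 to 4671 in TAC DKO hearts with a median of 4385, against 3844, 3996, 4156 and 4349 in sham DKO hearts. It differed by 0.09 in DKO hearts and by 0.10 in CTL hearts and did not pass in either.

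Ndufa9, an accessory subunit at the junction of the arms that binds a nicotinamide nucleotide, rose by 0.37 in DKO hearts and by 0.27 in CTL hearts, but with each array centred on its median the differences were -0.08 and -0.17. It read 9290 to 10970 in TAC DKO hearts with a median of 9793, against 7820, 7786, 8051 and 7186 in sham DKO hearts. The TAC CTL arrays gave 8747 to 11740 with a median of 9363, against 7929, 8523, 8854 and 7100 in sham CTL hearts, and these groups overlapped. In CTL hearts Ndufa9 no longer passed without sham CTL array 4 (adjusted p = 0.086 in limma). Ndufs6, a zinc-binding subunit, had 1 probe that rose by 0.31 and 1 that fell by 0.50 in DKO hearts, the first turning to -0.05 under median centring. The second no longer passed without sham DKO array 2 or 4 or TAC DKO array 1 (adjusted p = 0.051, 0.11 and 0.060). Neither passed in CTL hearts, with 0.08 and -0.42. 1 of 3 Ndufv3 probes fell by 0.31 in CTL hearts (adjusted p = 0.044). It no longer passed without any 1 of 9 arrays, with adjusted p up to 0.21 and a difference of -0.20 without sham CTL array 4. Ndufa2, Ndufa6, Ndufa7 and Ndufa12 did not pass in either genotype, with differences from -0.05 to 0.12 in DKO hearts and from -0.02 to 0.18 in CTL hearts.

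Among the 27 probes of 18 membrane arm accessory subunits, 12 fell and 3 rose in DKO hearts, against 12.7% and 15.4% of all probes, and 10 fell and 1 rose in CTL hearts, against 10.2% and 11.7%. Of these 8 were called lower in DKO hearts and 7 in CTL hearts, against 4.27% and 3.4%. Ndufb4, anchored in the inner membrane, had the lowest p of all structural subunits in both genotypes. It read 106.5 to 140.7 in TAC DKO hearts with a median of 112.8, against 451, 440.1, 479 and 575 in sham DKO hearts. The TAC CTL arrays gave 100.7 to 178.6 with a median of 128.4, against 496, 508, 411 and 694 in sham CTL hearts. The groups were far apart, with log2 differences of -2.03 (SE 0.138, adjusted p = 3.3e-10) in DKO hearts and -2.01 (SE 0.138, adjusted p = 6.6e-10) in CTL hearts in limma.

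Ndufb2 read 248 to 437 in TAC DKO hearts with a median of 282, against 1617, 1536, 1487 and 1731 in sham DKO hearts. The TAC CTL arrays gave 247 to 584 with a median of 440.5, against 1648, 1726, 1743 and 2655 in sham CTL hearts. The differences were -2.34 and -2.20 on the log2 scale, and the second probe of this gene was near background. Ndufb9, which like Ndufa6 docks the acyl carrier subunit, read 327 to 621 in TAC DKO hearts with a median of 386.5, against 1940.0, 1944, 2202 and 2582 in sham DKO hearts. The TAC CTL arrays gave 334 to 727 with a median of 651, against 2243, 2448, 2426 and 2970 in sham CTL hearts. Ndufb9 thus fell by 2.34 in DKO and by 2.20 in CTL hearts on the log2 scale, with no overlap of TAC and sham arrays.

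Ndufb5 differed by -1.59 in DKO and by -1.48 in CTL hearts on the log2 scale, with 701 to 1038 in TAC DKO hearts against 2414, 2432, 2519 and 2394 in sham DKO hearts, and 743 to 1217 in TAC CTL hearts against 2637, 2836, 2607 and 3243 in sham CTL hearts. Ndufb10, the one gene of several bright probes that all were called, had differences of -1.27 and -2.02 in DKO hearts and of -1.12 and -1.68 in CTL hearts. Its brighter probe read 1592 to 2739 in TAC DKO hearts with a median of 1766, against 4649, 4530.5, 4615 and 5212 in sham DKO hearts. The TAC CTL arrays gave 1599 to 2965 with a median of 2784, against 4693, 4917, 4944 and 6442 in sham CTL hearts.

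Ndufc2 had a bright probe without a call and a dim one with a call. The dim probe read 46.0 to 64.8 in TAC DKO hearts with a median of 56.6, against 111, 114, 125 and 124 in sham DKO hearts, and it fell by 1.08 in DKO hearts and by 0.94 in CTL hearts on the log2 scale. On 4 of 6 TAC DKO arrays it was under the background level. It read 46.9 to 77.6 in TAC CTL hearts, against 110, 114, 120 and 123 in sham CTL hearts. The bright probe differed by -0.01 in DKO and 0.09 in CTL hearts. Ndufb6 was alike, with a bright probe that rose by 0.29 in DKO hearts, turning to -0.15 under median centring and missing the threshold without sham DKO array 2 (adjusted p = 0.052), and a dim probe that fell by 1.03 there (adjusted p = 0.00049 in limma) and differed by -0.57 in CTL hearts (adjusted p = 0.052).

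Smaller differences were found for the other membrane arm subunits. Ndufa13, also known as the cell death regulator GRIM-19, fell by 0.26 in both genotypes with no overlap, reading 15280 to 16610 in TAC DKO hearts against 19629, 19390, 18786 and 19010 in sham DKO hearts. Ndufa1 fell by 0.29 in DKO and by 0.31 in CTL hearts. The dimmer probe of Ndufa8 fell by 0.40 and 0.42, whereas its brighter probe differed by -0.02 and -0.10 and did not pass. Ndufb7 fell by 0.26 in DKO hearts and differed by -0.20 in CTL hearts. It no longer passed in DKO hearts without sham DKO array 1 or 4 or TAC DKO array 1 or 4 (adjusted p = 0.053, 0.14, 0.050 and 0.065). Ndufa3, Ndufa10, Ndufa11, Ndufb3 and Ndufb11 did not pass in either genotype. The probes of Ndufa10, Ndufa11 and Ndufb3 differed by -0.12 to 0.01 in DKO hearts and by -0.07 to 0.05 in CTL hearts. Both probes of Ndufa3 moved alike, with 0.12 and 0.20 in DKO hearts and 0.03 and 0.06 in CTL hearts.

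Ndufc1 had the largest rise of the members. Its brighter probe read 5974 to 7350 in TAC DKO hearts with a median of 7047, against 4625, 5197, 4500 and 5059 in sham DKO hearts, and 6229 to 8335 in TAC CTL hearts with a median of 6355, against 5249, 5620, 4953 and 5778 in sham CTL hearts. It rose by 0.50 in DKO hearts (adjusted p = 5.1e-05) and by 0.33 in CTL hearts (adjusted p = 0.0046 in limma), with no overlap in either, but under median centring it differed by 0.04 and -0.13. The second probe of Ndufc1 differed by -0.20 in DKO and by -0.13 in CTL hearts and did not pass. The dim probe of Ndufb8 rose by 0.30 in DKO hearts, turning to -0.05 under median centring, while the bright probe of this gene differed by -0.14 (adjusted p = 0.053). The dim probe no longer passed without sham DKO array 2 or 3 or TAC DKO array 2 or 5 (adjusted p = 0.096, 0.12, 0.071 and 0.057).

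Ndufab1, the mitochondrial acyl carrier protein, sits in both arms and also serves fatty acid and lipoate synthesis. Its brightest probe rose by 0.25 in DKO hearts, turning to -0.13 under median centring, and read 14540 to 16960 in TAC DKO hearts against 13077, 13338, 13464 and 13202 in sham DKO hearts. Its other 3 probes fell by 0.38, 0.36 and 0.45 there, the last in the dimmest probe, which was under the background level on 3 of 6 TAC DKO and 2 of 6 TAC CTL arrays. In CTL hearts 2 of these fell, by 0.40 and 0.55, while the brightest differed by 0.18 and the remaining one by -0.22. The second brightest probe no longer passed without array 2 or 4 of the sham group, with adjusted p = 0.066 and 0.087 in DKO hearts and 0.053 and 0.051 in CTL hearts.

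The assembly factors gave 4 probes that fell in DKO hearts and 5 in CTL hearts, with none that rose, out of 13 probes and against 12.7% and 10.2% of all probes lower. Of these, 3 were called in DKO and 2 in CTL hearts, against 4.27% and 3.4%. Without overlap 3 were lower and 1 higher in DKO hearts, against 9.38% and 11.1%, and 4 were lower and 0 higher in CTL hearts, against 7.78% and 8.37%. Ndufaf2, a paralog of Ndufa12 that acts late in assembly, read 390.5 to 537 in TAC DKO hearts with a median of 419, against 1037, 973, 1051 and 1389 in sham DKO hearts. The TAC CTL arrays gave 392 to 633 with a median of 518, against 993, 1043, 859 and 1453 in sham CTL hearts. It fell by 1.31 in DKO hearts and by 1.07 in CTL hearts, with adjusted p = 1.4e-07 and 3.3e-06 in limma.

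The dimmer probe of Ndufaf5 had the lowest p of all members. It read 73.6 to 98.2 in TAC DKO hearts with a median of 82.9, against 237, 239.9, 248 and 294 in sham DKO hearts, and 88.0 to 115 in TAC CTL hearts with a median of 93.9, against 253, 256, 248 and 298 in sham CTL hearts. It fell by 1.60 in DKO hearts (SE 0.086, adjusted p = 1.5e-11) and by 1.45 in CTL hearts (adjusted p = 1.3e-10 in limma), with no overlap. The brighter probe of Ndufaf5 read 322 to 371 in TAC DKO hearts against 346, 333, 344 and 423 in sham DKO hearts, and differed by -0.05 in DKO and -0.06 in CTL hearts.

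Ndufaf1, which acts on the membrane arm, fell by 0.37 in DKO and by 0.36 in CTL hearts, reading 1163 to 1579 in TAC DKO hearts against 1668, 1865, 1792 and 1932 in sham DKO hearts. Ndufaf3, which works with Ndufaf4 early in the assembly of the matrix arm, fell by 0.59 in DKO hearts, where it was called, and by 0.46 in CTL hearts. Its probe was dim, with 58.8 to 97.5 in TAC DKO hearts against 94.8, 102.2, 102.3 and 137.7 in sham DKO hearts. These groups overlapped, and the background level was 58.1. The dimmer probe of Ndufaf4 fell by 0.44 in CTL hearts (adjusted p = 0.035) and differed by -0.25 in DKO hearts, and the brighter one differed by 0.09 in CTL and by 0.02 in DKO hearts. The dimmer probe no longer passed in CTL hearts without sham CTL array 2 or 4 or TAC CTL array 1, 4, 5 or 6 (adjusted p from 0.051 to 0.18). The bright probes of Ndufaf7 and Ndufaf8, the partner of Ndufaf5, differed by 0.21 and 0.19 in DKO hearts and by 0.37 and 0.18 in CTL hearts without passing. Ndufaf6 was near background.

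Ndufa4 fell by 0.21 in DKO hearts (adjusted p = 0.026) and differed by -0.18 in CTL hearts (adjusted p = 0.068 in limma), with overlapping arrays in both. Without sham DKO array 1, 2 or 3 or TAC DKO array 1 or 2 it no longer passed in DKO hearts, with adjusted p from 0.059 to 0.081. Ndufs5-ps did not pass, with 0.12 and 0.07.

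Probes of the same gene often disagreed about TAC. 13 probes of 10 genes were called lower in both genotypes, 11 of them structural, of Ndufa5, Ndufs4, Ndufb2, Ndufb4, Ndufb5, Ndufb9, Ndufb10 and Ndufc2, and 2 of the assembly factors Ndufaf2 and Ndufaf5. Of all probes 4.27% were called lower in DKO hearts and 3.4% in CTL hearts, and the share called in both was not computed. Of the 10 genes, 5 had several probes above background, and in 4 of them, Ndufa5, Ndufs4, Ndufc2 and Ndufaf5, the brightest probe was not called. Over the 26 pairs of probes from 14 complex I genes with both probes above background, the dimmer probe had the lower difference in 21 pairs (80.8%) in DKO hearts and in 22 pairs (84.6%) in CTL hearts. For 7134 such pairs of all genes these shares were 61.5% and 59.7%. The probes differed by more than 1 on the log2 scale in 7 complex I pairs (26.9%) in DKO hearts and in 6 (23.1%) in CTL hearts, against 8.71% and 6.60% of all pairs, and in each of these complex I pairs the dimmer probe was the lower. Pairs from 1 gene share probes and are not independent.

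A disagreement of the test result was found in 9 of 26 pairs (34.6%) in DKO hearts and in 15 of 26 (57.7%) in CTL hearts, against 47.5% and 44.3% of the pairs of all genes. In DKO hearts 5 pairs had both probes past the threshold with opposite signs, 3 of them in Ndufab1, 1 of these with its dimmest probe, and 1 each in Ndufs6 and Ndufb6, and each rests on a rise that turned under median centring. Between genotypes no pair differed by more than 1, after TAC or in sham hearts. The deviations of the probes from their group means correlated with a median r of 0.12 within complex I genes and of 0.25 within all genes, over 20 arrays that the probes share. Ndufb10 with 0.92 and Ndufa3 with 0.83 were at the high end. What parts of the transcripts these probes match was not analysed here, and the cause of the disagreement was not tested.

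Taking the brightest probe of each gene alone, an alternative chosen after seeing the data, 10 of 34 structural genes fell and 5 rose in DKO hearts, with a median of -0.03. In CTL hearts 11 fell and 2 rose, with a median of -0.07. Of all probes 12.7% passed lower and 15.4% higher in DKO hearts, and 10.2% and 11.7% in CTL hearts. Among probes at least as bright as the median member, the shares were 22.9% and 37.5% in DKO hearts and 20.2% and 34.5% in CTL hearts. These shares are of probes, and shares over the brightest probe of every gene on the chip were not computed. Among the genes that fell by their brightest probe in both genotypes were Ndufb2, Ndufb4, Ndufb5, Ndufb9, Ndufb10, Ndufs3, Ndufa1, Ndufa13 and Ndufv2. Of these, Ndufb4, Ndufb5, Ndufb9, Ndufs3, Ndufa1, Ndufa13 and Ndufv2 had 1 probe each, and the second probe of Ndufb2 was near background. The choice of the brightest probe could therefore bear only on Ndufb10 among them. Of the 8 assembly factors 3 fell in both, Ndufaf1, Ndufaf2 and Ndufaf3, which had 1 probe each.

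The level of the members on single arrays is given as the mean over probes above background of the log2 intensity minus the mean of the probe over all arrays. The 50 structural probes averaged -0.22 ± 0.11 in TAC DKO hearts (SD, n = 6), -0.13 ± 0.11 in TAC CTL hearts (n = 6), 0.23 ± 0.06 in sham DKO hearts (n = 4) and 0.30 ± 0.07 in sham CTL hearts (n = 4). The highest TAC array, TAC CTL 6, stood at 0.04 and the lowest sham array at 0.18. The assembly factors averaged -0.18 ± 0.07 in TAC DKO, -0.13 ± 0.06 in TAC CTL, 0.24 ± 0.09 in sham DKO and 0.22 ± 0.07 in sham CTL hearts. Both classes were thus lower on every TAC array than on every sham array.

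The 13 probes called lower in both genotypes moved furthest. They were selected for that difference, so their levels are a description. Their mean was -0.79 ± 0.26 in TAC DKO, -0.52 ± 0.30 in TAC CTL, 0.93 ± 0.11 in sham DKO and 1.04 ± 0.19 in sham CTL hearts, whereas the 37 structural probes not called stood at -0.04 ± 0.05, -0.01 ± 0.06, 0.00 ± 0.05 and 0.06 ± 0.04 in the same order. Within the TAC groups the called probes were at -0.94 or below on TAC DKO arrays 1 to 4 and at -0.48 and -0.42 on arrays 5 and 6. They were at -0.99 and -0.76 on TAC CTL arrays 1 and 2 and at -0.52 to -0.18 on arrays 3 to 6. They ranged from 0.85 to 1.09 on the sham DKO arrays, and sham CTL array 4 was highest with 1.32, against 0.93 to 0.96 on the other sham CTL arrays. That array also stood apart on the second principal component of all probes above background. The first component, with 62.8% of the variance, ordered the TAC arrays much as the called probes did. It was 32.5 or higher on TAC DKO arrays 1 to 4 and 18.5 and 15.7 on arrays 5 and 6. On TAC CTL arrays 1 and 2 it was 35.2 and 25.5, and on arrays 3 to 6 it ran from 7.9 to 19.6. The order of the TAC arrays was thus not shown to be particular to complex I.

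Deviations from the group means moved together among the called probes. Over 20 arrays, Pearson's r of 74 pairs of called probes from different genes ran from 0.27 to 0.94 with a median of 0.78. It had a median of 0.13 in 652 pairs of structural probes not called and of 0.35 in the 6 pairs of a called probe with a probe of its own gene that was not called. All these pairs share the same arrays and their normalisation. The called probes were selected for their difference after TAC, and probes of other genes selected in the same way were not compared. The higher r of the called probes is therefore a description and no trait of complex I.

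Other genes of complex I were read from lists, in the main scaling only. Of all probes 12.7% passed lower and 15.4% higher in DKO hearts, and 10.2% and 11.7% in CTL hearts. Among probes at least as bright as the median member, the shares were 22.9% and 37.5% in DKO hearts and 20.2% and 34.5% in CTL hearts. The lists were not restricted to that brightness. Of 5 probes of mitochondrially encoded subunits 3 fell in DKO hearts and 2 in CTL hearts. ND4L fell by 3.86 and 3.47 and ND1 by 1.18 and 1.11 on the log2 scale in DKO and CTL hearts, and ND4 fell by 0.40 in DKO hearts, whereas ND5 and ND6 did not pass. Of 25 probes of assembly genes with other names, such as Acad9, Ecsit and Timmdc1, 13 fell and 2 rose in DKO hearts and 10 fell and 3 rose in CTL hearts, with medians of -0.29 and -0.22.

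The other complexes of oxidative phosphorylation were read in the same way, in the main scaling only and against the same shares of all probes. Complex II, succinate dehydrogenase, had 6 of 7 probes lower in DKO and 5 of 7 in CTL hearts, with none higher and medians of -0.66 and -0.49, among them Sdhd with -2.22 and -1.86. Complex III had 2 of 11 probes lower and 2 higher in both. Complex IV had 7 of 13 lower and 2 higher in both, and ATP synthase had 13 of 25 lower and 5 higher in DKO hearts and 10 lower and 2 higher in CTL hearts. Among 25 probes of regulators of these genes, such as Ppargc1a, Esrra, Nrf1 and Gabpa, 4 fell and 3 rose in DKO hearts and 1 fell and 3 rose in CTL hearts, with medians of -0.04 and -0.02.

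Markers of cells in the tissue moved with surgery as well, counted here in the main scaling only. Of all probes 12.7% passed lower and 15.4% higher in DKO hearts, and 10.2% and 11.7% in CTL hearts. Of 25 cardiomyocyte marker probes 9 fell and 5 rose in DKO hearts and 8 fell and 3 rose in CTL hearts. Their mean level ranged from -0.21 to 0.03 in TAC DKO, -0.44 to 0.17 in TAC CTL, 0.05 to 0.14 in sham DKO and -0.02 to 0.59 in sham CTL hearts. Both red blood cell probes rose in each genotype, with levels of 0.23 to 0.57 in TAC DKO and -0.02 to 0.61 in TAC CTL hearts, against -0.72 to 0.30 in sham DKO and -1.29 to -0.18 in sham CTL hearts. Smooth muscle and pericyte markers rose in 4 of 13 probes in DKO and 2 in CTL hearts, and leukocyte markers fell in 5 of 15 and 2 of 15. Of 16 fibroblast probes 5 fell and 4 rose in DKO hearts and 2 fell and 5 rose in CTL hearts. Of 13 endothelial probes 2 fell and 1 rose in DKO hearts and 4 fell and 0 rose in CTL hearts. Of the hypertrophy markers, among them Nppb and Acta1, 5 of 8 probes rose in DKO and 8 of 8 in CTL hearts. The part of these cells in the complex I differences was not tested. None of 9 atrial marker probes passed between genotypes, and their levels were -0.05 to 2.74 in TAC DKO and -0.85 to 0.54 in TAC CTL hearts, and -0.58 to 0.46 in sham DKO and -1.24 to -0.96 in sham CTL hearts.

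Promoters were examined because nuclear complex I genes are known targets of NRF1, GABPA, YY1 and the oestrogen-related receptors (ERR), and because CpG sites are the substrate of the deleted enzymes. RefSeq windows of the 250 bases before the annotated start (GRCm38.p6) were matched for 31 of 34 structural genes and 7 of 8 assembly factor genes. The window of Ndufa5 appears to reach past the start codon of its protein, so it is not shown, but it was kept in the counts. A window is shown for Ndufb4, which had the lowest p of the structural subunits, and for Ndufc1, whose brighter probe rose before median centring. Both genes lie on the minus strand, at chr16:37654369-37654618 and chr3:51408956-51409205, and the letters run from 5′ to 3′ toward the start, with a match to the searched ERR letters in capitals.
Ndufb4: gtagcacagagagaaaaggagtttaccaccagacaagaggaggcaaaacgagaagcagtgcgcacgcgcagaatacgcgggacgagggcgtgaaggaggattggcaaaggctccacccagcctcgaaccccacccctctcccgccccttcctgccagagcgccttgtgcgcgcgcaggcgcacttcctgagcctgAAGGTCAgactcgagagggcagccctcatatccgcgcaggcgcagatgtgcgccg
Ndufc1: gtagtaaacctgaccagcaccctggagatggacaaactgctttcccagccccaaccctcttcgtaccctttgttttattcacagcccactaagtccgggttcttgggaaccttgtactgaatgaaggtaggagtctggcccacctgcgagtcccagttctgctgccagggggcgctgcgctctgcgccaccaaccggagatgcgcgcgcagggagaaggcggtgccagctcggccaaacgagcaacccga
The match in Ndufb4 covers positions -55 to -49 before the start. The Ndufb4 window holds 21 CpG sites and the Ndufc1 window 14 with no match to any of the 4 motifs.

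Each motif was searched on both strands by short letters in these windows only, so letters after the annotated start were not covered. The ERR letters AAGGTCA were in 6.45% of structural promoters, 0% of assembly factor promoters and 4.05% of 27025 promoters. The NRF1 letters GCATGCG were in 9.68%, 14.3% and 3.07%, the GABPA letters CCGGAAG in 9.68%, 28.6% and 7.05%, and the YY1 letters AAGATGG in 0%, 0% and 4.53%. The shares are of few genes, 3 structural and 1 assembly factor gene for NRF1, 3 and 2 for GABPA, and 2 structural genes for ERR. Of 9 matched genes with a probe called lower in both genotypes, 2 held the ERR letters (22.2%) and none the other 3. The median number of CpG sites was 15 in structural promoters, 20 in assembly factor promoters and 6 in all promoters. A match of letters is a description and not a binding site.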

How the data were processed

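RNA of left ventricles was measured on Illumina mouse bead chips, 1 array per mouse, and samples were grouped by their labels. The deposited table holds linear intensity values that the authors produced in GenomeStudio 2010.3; how background and normalisation were set there is not stated by the labels or methods. Within each set at least 97.6% of the sorted values (sham, 8 arrays) or 99.9% (TAC, 12 arrays) were equal at a tolerance of 0.2%, and 0.413% were equal between sets, so each set had been quantile normalised apart, with medians of 47.5 (sham) and 58.6 (TAC).

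Values were taken to log2 with nothing added, then quantile normalised over 20 arrays. 1 mean per group was fitted to 45281 probes with limma 3.58.1 in R 4.3.3 (16 residual and 6.645 prior degrees of freedom), and p was adjusted by Benjamini-Hochberg over all probes. 34885 probes had 1 gene, 18 had several and 10378 had none in the platform annotation; the probes come with no named build, so positions were not used. Where nothing in the labels separates litters or days, p-values measure the spread between these mice. The fit was tested on simulated data.

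The rule for the members goes by gene name, but it, the gene lists and the tests were chosen with earlier results of these data known. Named are core subunits, assembly factors, Ndufab1, Ndufa4, called members, the 8 probes of lowest p per comparison, and genes whose probes passed differently; other members named as not passing complete the account. Alternatives were other normalisations, an added constant of 16, a filter on dim probes, a trended and robust variance, array weights, only the compared groups, a replicate block, other thresholds, each array left out, and the brightest probe per gene.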

Additional observations from a re-analysis of the deposited data

Results flagged for a closer look

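In 3 of 72 groups of 4 or 6 arrays tested, 1 array lay so far from its neighbour that the gap took most of the range of its group; chance alone gives about 1 in 20. Only the mean levels of both classes and the probes called lower after TAC in either genotype were tested. All 3 flags were sham CTL array 4, the highest of its group. The gap was 0.835 of the range for the brighter and 0.836 for the dimmer probe of Ndufb10, and 0.883 for Ndufb2. The intensities on that array were 6442, 2560 and 2655, against 4693 to 4944, 1350 to 1499 and 1648 to 1743 on the other sham CTL arrays. All 3 probes were still called lower in CTL hearts without that array, with log2 differences of -1.02, -1.47 and -2.05.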

How the results depend on the processing

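Across 61 pairs of a probe that passed and a comparison, 1769 values were recomputed, of which 1666 kept direction and side of the threshold, 96 missed the threshold and 7 turned. Of the 61 pairs, 42 kept their direction and still passed under every alternative run on single probes, among them those of the 13 probes called lower in both genotypes. Other thresholds and the brightest probe per gene were run on counts only. Without at least 1 array, 14 pairs no longer passed. Median centring of each array moved most counts. In CTL hearts 45 structural probes then fell and 0 rose, 27 were called lower and 8 assembly factor probes fell. In DKO hearts these counts were 44, 0, 25 and 8. The probes that turned under it were Ndufa9 (-0.17) and Ndufc1 (-0.13) in CTL hearts, and Ndufab1 (-0.13), Ndufa9 (-0.076), Ndufs6 (-0.046), Ndufb6 (-0.15) and Ndufb8 (-0.046) in DKO hearts. The mean structural level of TAC CTL minus sham CTL arrays was -0.852, against -0.429 in the main analysis. As deposited, 32 structural probes fell in CTL and 33 in DKO hearts. The count that rose in CTL hearts was 1 under cyclic loess, 1 with only the compared groups and 1 at an adjusted p under 0.01, where it was 3 in DKO hearts. Taking only the brightest probe of each gene, chosen after seeing the data, 11 fell and 5 were called in CTL hearts, 10 and 6 in DKO hearts. The causes were not tested, apart from the fewer probes counted in the last case.

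Leaving out 1 array gave 17 to 24 structural probes that fell, 1 to 4 that rose (4 without the second and 1 without the fourth sham CTL array), 11 to 13 called and 4 to 5 assembly factor probes in CTL hearts. In DKO hearts the ranges were 19 to 24, 4 to 7, 12 to 14 and 4 to 4, and 0 to 0 between genotypes and in the interaction. The labels tie same-numbered arrays of a set by nothing else, and their deviations did not all correlate (r from 0.014 to 0.22 in sham and from -0.19 to 0.38 in TAC hearts), so the main fit has no block. With the replicate block 2 members passed between TAC DKO and TAC CTL hearts, Ndufs4 with -0.47 (adjusted p = 0.019 in limma) and Ndufb5 with -0.32 (adjusted p = 0.047). Of all probes 351 then passed, against 143 without the block. The block left the other counts of members within 1.5 times. Sizes of dim probes near background are limited by the signal.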
